A study of Mus musculus with 24 samples.

Results

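The 33 genes described here make cholesterol and fatty acids, control that synthesis, or carry sterol out of the cell. They are the rows of both deposited count tables whose symbol was on a fixed list of genes of cholesterol synthesis, of the SREBP system and of the LXR system, and all 33 were found among 54658 symbols. By role, 7 act in the mevalonate stage and 11 in the squalene and sterol stage. A further 4 control SREBP or transport sterol, 4 make fatty acids, 2 are the LXR receptors, 4 are LXR targets of efflux and uptake, and 1 stores sterol as ester.

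The study asked how β-nicotinamide mononucleotide (β-NMN), a precursor of NAD+, changes gene expression in mice with peritonitis. RNA was sequenced from C57BL/6 male mice of 7 to 12 weeks that received β-NMN at 185 mg/kg/day or saline (vehicle) by intraperitoneal injection. In the first experiment sterile peritonitis was induced with thioglycollate medium (TGC), and cells of the peritoneal lavage were exposed in culture for 6 h to E. coli at 15 bacteria per cell before RNA was taken, with 6 vehicle and 6 β-NMN mice. In the second, sepsis was induced by cecal ligation and puncture (CLP), and RNA was taken from the heart and the lung of the same 3 vehicle and 3 β-NMN mice. The study reports daily injections in the first experiment, but a single administration before these organs were taken, so exposure differed. All groups carried peritonitis or sepsis, and no library from an untreated mouse was analysed here. The source labels of the organs name TGC, whereas their titles, their tissue labels and the methods give CLP.

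Cells build cholesterol from acetyl-CoA through mevalonate, isoprenoids, squalene and a series of sterols. When membrane sterol is low, SREBP-2 (gene Srebf2) and SREBP-1 (gene Srebf1) are cut free from the membrane and switch on the genes of sterol and fatty acid synthesis, a step that the protein INSIG-1 holds back when sterol is plentiful. The liver X receptors LXRα (gene Nr1h3) and LXRβ (gene Nr1h2) bind oxysterols, and in macrophages they drive the transporters Abca1 and Abcg1 and the carrier Apoe, which export sterol, and the ubiquitin ligase Mylip, which removes lipoprotein receptors from the surface.

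Promoter stretches are shown for 8 of the genes whose peritoneal results are given below, and those results do not rest on the stretches. Each stretch is the 180 bases upstream of the RefSeq start of transcription on GRCm38.p6, written from 5′ to 3′ on the strand of the gene. Capitals mark the letters CCAAT in either orientation, the motif of NF-Y, and in Hmgcs1 also a match to TCACNCCAC, a form of the sterol response element that SREBP binds. The first 4 genes make sterol or fatty acid and had lower counts with β-NMN in peritoneal cells.
Hmgcs1 (chr13:119690171-119690350, + strand): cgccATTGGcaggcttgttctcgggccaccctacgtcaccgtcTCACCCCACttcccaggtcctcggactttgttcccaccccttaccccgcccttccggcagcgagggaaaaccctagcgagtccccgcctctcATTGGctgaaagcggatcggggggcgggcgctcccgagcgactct
Idi1 (chr13:8885426-8885605, + strand): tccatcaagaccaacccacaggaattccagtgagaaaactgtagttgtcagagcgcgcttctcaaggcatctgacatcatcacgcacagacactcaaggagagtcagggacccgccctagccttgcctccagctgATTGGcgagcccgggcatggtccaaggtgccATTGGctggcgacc
Cyp51 (chr5:4104698-4104877, - strand): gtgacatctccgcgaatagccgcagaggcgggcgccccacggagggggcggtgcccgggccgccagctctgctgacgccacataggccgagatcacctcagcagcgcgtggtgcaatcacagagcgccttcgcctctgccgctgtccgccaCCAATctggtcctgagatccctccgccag
Fasn (chr11:120824548-120824727, - strand): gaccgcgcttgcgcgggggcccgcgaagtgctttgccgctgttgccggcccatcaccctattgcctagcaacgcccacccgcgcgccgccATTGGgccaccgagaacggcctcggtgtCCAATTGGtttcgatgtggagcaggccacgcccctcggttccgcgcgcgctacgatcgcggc
The next 2 genes also make sterol and had higher counts with β-NMN in peritoneal cells.
Ebp (chrX:8193513-8193692, - strand): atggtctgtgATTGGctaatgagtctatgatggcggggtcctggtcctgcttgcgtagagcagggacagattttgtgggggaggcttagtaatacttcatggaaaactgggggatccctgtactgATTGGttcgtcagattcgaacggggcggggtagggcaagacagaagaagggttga
Nsdhl (chrX:72918341-72918520, + strand): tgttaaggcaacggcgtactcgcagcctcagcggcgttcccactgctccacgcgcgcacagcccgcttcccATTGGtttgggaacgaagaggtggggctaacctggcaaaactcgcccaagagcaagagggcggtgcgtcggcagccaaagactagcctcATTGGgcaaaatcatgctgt
The last 2 genes are LXR targets that were also lower with β-NMN in peritoneal cells, and the stretch of Abca1 holds neither motif.
Abca1 (chr4:53159896-53160075, - strand): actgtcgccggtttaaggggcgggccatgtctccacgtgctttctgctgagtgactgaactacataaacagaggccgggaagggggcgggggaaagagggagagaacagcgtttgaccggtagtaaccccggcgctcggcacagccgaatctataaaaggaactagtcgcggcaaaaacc
Mylip (chr13:45389562-45389741, + strand): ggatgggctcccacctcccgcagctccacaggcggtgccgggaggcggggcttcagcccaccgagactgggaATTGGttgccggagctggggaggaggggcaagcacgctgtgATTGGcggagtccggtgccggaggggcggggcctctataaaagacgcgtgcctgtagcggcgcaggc

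RefSeq windows of 250 bases before to 50 after a start were at hand for 26 of the 33 genes. CCAAT, on either strand, was found in a window of 20 of these 26, against 41.1% of the 27025 genes with a window. It was in 14 of the 15 synthesis genes with a window, the exception being Acat2, and in 9 of the 12 genes that were called lower in peritoneal cells, 3 of the 5 called higher and 8 of the 9 not called. In Fasn a forward and a reverse copy overlap. TCACNCCAC was found in Hmgcs1 alone among the 26, against 1.44% of all genes. TCACGTGA, an E-box form that SREBP-1 also binds, was in 0 of the 26 and 1.12% of all genes. An exact direct repeat of AGGTCA with 4 bases between the copies, 1 form that LXR binds, was in 0 of the 26. It was in 0.0148% of all genes. Both strands were searched in each case. Only these exact letters were searched, with N for any base, so binding sites with other letters were not counted. A lack of matches therefore does not show that a gene lacks an SREBP or LXR site. A match in these letters is a description of the window only.

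Expression is given as CPM, the counts of a gene scaled to a fixed library total, with library sizes adjusted by TMM within each tissue. Total counts per library ranged from 31126823 to 112456050 in vehicle and from 36353254 to 90903671 in β-NMN peritoneal cells, from 27319513 to 68523239 in hearts and from 8915366 to 28356786 in lungs. The 33 genes took 0.477% to 0.654% of the counts in vehicle peritoneal cells and 0.782% to 1.04% in β-NMN cells. Apoe alone took 0.309% to 0.483% and 0.668% to 0.913%, and the other 32 genes together 0.149% to 0.204% in vehicle and 0.110% to 0.139% in β-NMN cells. The heart and the lung of vehicle mouse 2 stood apart from the other libraries of their organ. The SD of log2 CPM against the mean of the other libraries was 0.99 in that heart against at most 0.577 in the others, and 1.57 in that lung against at most 0.602. For β-NMN against vehicle in both organs, edgeR counts and the fold changes of the named genes are therefore given with and without this mouse. DESeq2 calls are given with all mice only.

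Per kilobase of exon, the sterol carrier Apoe had the highest level of the 33 genes in vehicle mice of all 3 tissues, with 1694 ± 278 CPM per kb (SD, n = 6) in peritoneal cells, 220 ± 100.0 (n = 3) in hearts and 475 ± 143 (n = 3) in lungs. In peritoneal cells it was followed by the exporter Abca1, with 68.0 ± 13.6 CPM per kb, and by Nr1h2, with 41.8 ± 2.92. Mvd (mevalonate diphosphate decarboxylase), with 34.5 ± 9.01 CPM per kb, Abcg1, with 30.8 ± 5.15, and Insig1, with 25.3 ± 3.21, came next, with ranges that overlapped. Apart from Mvd, the synthesis genes of peritoneal cells lay low. The next of them was Hmgcs1 at 5.92 ± 0.593 CPM per kb, and Lss (lanosterol synthase) and Fdps (farnesyl diphosphate synthase) ended the order at 0.0822 ± 0.0315 and 0.0310 ± 0.00797. In lungs Apoe was followed by Pmvk (phosphomevalonate kinase), with 131 ± 68.2 CPM per kb, and the desaturase Scd1, with 125 ± 3.66, which did not differ beyond their spread. Peritoneal cells and organs come from separate tables that were scaled separately, so levels between them were not tested.

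**Figure D1:**
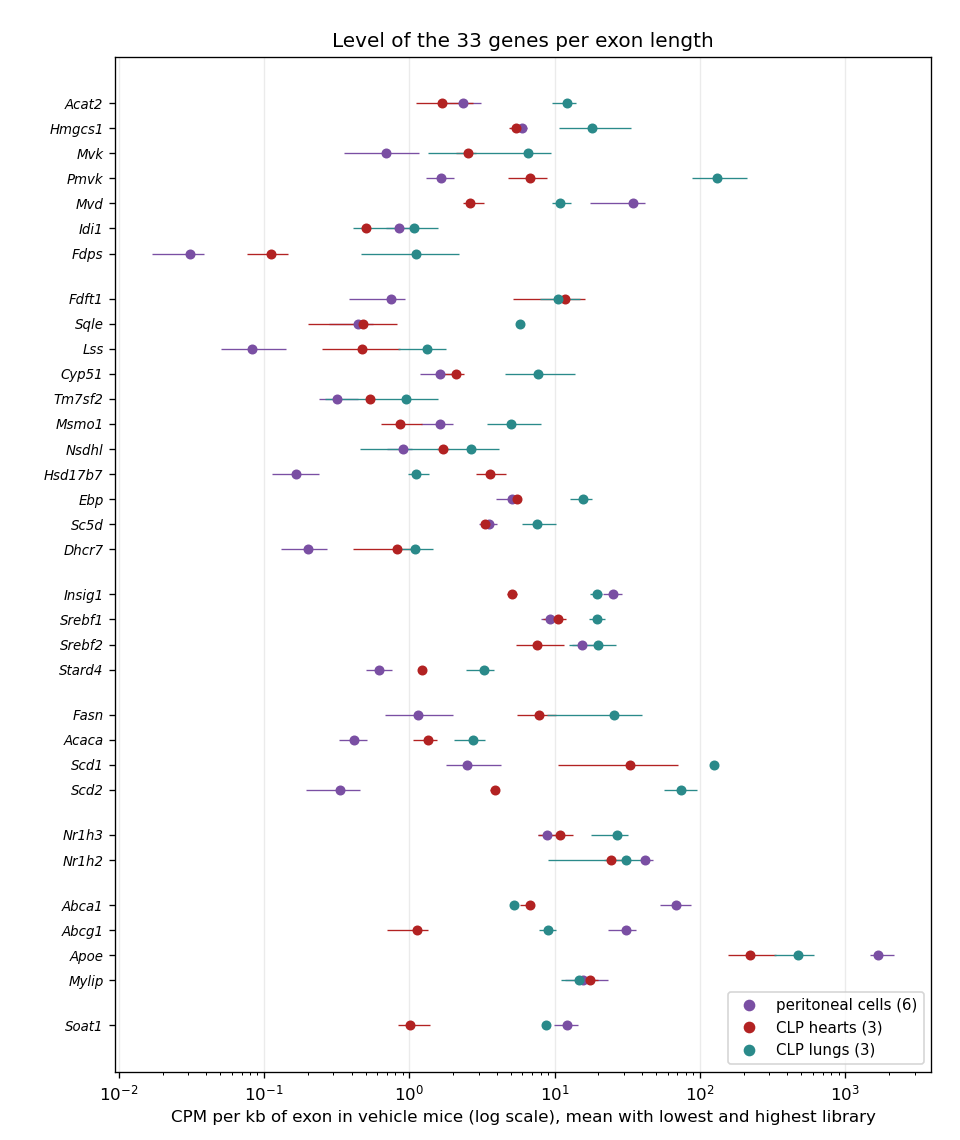
CPM per kilobase of exon (log axis) of the 33 genes, grouped by role from top to bottom, in vehicle mice. Points are means over 6 mice for peritoneal cells and 3 for hearts and lungs, and lines run from the lowest to the highest library. Apoe lies farthest right in each tissue, and most synthesis genes lie farther right in lungs than in hearts.

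In peritoneal cells, β-NMN went with lower counts of many genes of sterol and fatty acid synthesis, while the LXR genes split. Of the 33 genes 32 passed the filter on low counts and were tested, Fdps being left out with 0 to 0.402 CPM. By edgeR's quasi-likelihood test with Benjamini-Hochberg adjustment over 14985 genes, 15 of the 32 were lower with β-NMN, against 27.9% of all genes tested, and 5 were higher, against 23.7%. The median log2 fold change of the 32 was -0.43, beside -0.02 for all genes tested. The ranges of the 6 β-NMN and the 6 vehicle mice did not overlap for 12 genes that were lower, against 14% of all genes, and for 4 that were higher, against 12.6%. These are bulk libraries, in which a smaller share of a cell type and less RNA per cell cannot be told apart.

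The mevalonate stage had 4 genes lower and 0 higher among 6 tested, beside 27.9% and 23.7% of all genes tested. Idi1, which isomerizes the isoprenoid unit, had 2.42, 2.71 and 4.03 CPM (lowest, median and highest mouse) in vehicle and 0.558, 0.920 and 1.34 CPM in β-NMN cells, without overlap. Its log2 fold change was -1.68 (SE 0.225, adjusted p = 2.57e-05 by edgeR), a level 3.2 times lower. Hmgcs1, which forms HMG-CoA and carries the sterol element shown above, had 22.8, 27.6 and 29.6 CPM in vehicle and 15.6, 16.8 and 22.0 CPM in β-NMN cells. The groups again did not overlap, with a log2 fold change of -0.63 (SE 0.0994, adjusted p = 0.000101 by edgeR).

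Pmvk, the second kinase of the stage, went from 2.22, 2.77 and 3.48 CPM in vehicle to 1.51, 1.90 and 2.15 CPM in β-NMN cells, a log2 fold change of -0.62 (SE 0.156, adjusted p = 0.00408 by edgeR). Acat2, the thiolase that opens the route, went from 4.48, 5.77 and 7.87 CPM to 2.36, 3.45 and 4.68 CPM, and its groups overlapped slightly. Its log2 fold change was -0.72 (SE 0.182, adjusted p = 0.00396 by edgeR). Mvd and Mvk (mevalonate kinase) were not called, with fitted log2 fold changes of -0.37 (SE 0.2) and 0.39 (SE 0.223).

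In the squalene and sterol stage 4 of 11 genes were lower, 3 higher and 4 not called, shares that lie near the 27.9% and 23.7% of all genes tested. Cyp51, the lanosterol demethylase, had 5.22, 7.27 and 8.62 CPM in vehicle and 2.50, 3.55 and 3.91 CPM in β-NMN cells. All 6 β-NMN mice lay below all 6 vehicle mice, with a log2 fold change of -1.07 (SE 0.149, adjusted p = 3.57e-05 by edgeR). Hsd17b7, a ketoreductase of the same stage, was scarce, at 0.578, 0.838 and 1.22 CPM in vehicle and 0.153, 0.296 and 0.535 CPM in β-NMN cells, where the lowest library held 6 reads. Its log2 fold change was -1.39 (SE 0.324, adjusted p = 0.0024 by edgeR).

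Ebp, the sterol isomerase, went the other way, from 9.15, 12.5 and 13.4 CPM in vehicle to 16.4, 17.4 and 18.9 CPM in β-NMN cells. The groups did not overlap, with a log2 fold change of 0.57 (SE 0.0994, adjusted p = 0.000253 by edgeR). Nsdhl, a dehydrogenase that acts on the products of Msmo1, rose from 2.00, 2.68 and 2.98 CPM to 3.06, 3.96 and 4.79 CPM, also without overlap and with a log2 fold change of 0.61 (SE 0.148, adjusted p = 0.00324 by edgeR). Sc5d, a desaturase late in the route, rose by 0.24 on the log2 scale (adjusted p = 0.0417 by edgeR) and Fdft1, the squalene synthase, fell by 0.51 (adjusted p = 0.039), and both calls were lost under other settings. Msmo1, a methylsterol oxidase, fell by 0.40 (adjusted p = 0.00965), a call that was lost without the filter on low counts. Of the genes not called, Dhcr7 and Sqle were fitted lower, at -0.50 and -0.42, and Lss and Tm7sf2 were fitted higher, at 0.36 and 0.10. Of the exon length of Fdps, which has the largest overlap of the 33 genes, 26.7% is shared with Gm43738 on the same strand. In Fdft1 18.3% is shared with Ctsb, in Hmgcs1 12.1% with Gm48342 and in Idi1 9.22% with Gm48574, each on the opposite strand, and in Tm7sf2 12.1% with Vps51 on the same strand. Smaller shares, of at most 3.76%, are found in Cyp51, Lss, Srebf1, Nr1h3 and Scd2. No source used here says whether strand was counted, so reads of such partners cannot be told apart.

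Of the 4 genes of SREBP control and transport, Srebf2 and Stard4 were lower, beside 27.9% of all genes tested. Srebf2 had 94.6, 108 and 138 CPM in vehicle and 59.3, 74.8 and 85.8 CPM in β-NMN cells, with no overlap and a log2 fold change of -0.57 (SE 0.108, adjusted p = 0.000485 by edgeR). Stard4, which moves sterol between membranes, had 2.80, 3.45 and 4.23 CPM in vehicle and 1.02, 1.70 and 2.16 CPM in β-NMN cells. Its groups did not overlap either, and its log2 fold change was -1.08 (SE 0.175, adjusted p = 0.000134 by edgeR). Srebf1 and Insig1 were not called. Srebf1 had a median of 53.0 CPM in vehicle and 54.9 CPM in β-NMN cells (log2 fold change 0.06, SE 0.0828), and Insig1 one of 78.1 and 71.9 CPM (-0.09, SE 0.135).

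Of the 4 fatty acid genes, 2 were lower and 0 higher, beside 27.9% and 23.7% of all genes tested. Scd2, a desaturase that makes monounsaturated fatty acids, had 1.06, 1.92 and 2.51 CPM in vehicle and 0.285, 0.495 and 0.715 CPM in β-NMN cells. The groups did not overlap, with a log2 fold change of -1.85 (SE 0.27, adjusted p = 5.69e-05 by edgeR). Fasn, the fatty acid synthase, had 7.40, 12.6 and 21.7 CPM in vehicle and 3.68, 5.41 and 7.16 CPM in β-NMN cells, again without overlap, and a log2 fold change of -1.21 (SE 0.241, adjusted p = 0.000735 by edgeR). Scd1 had 8.73, 10.3 and 20.8 CPM in vehicle and 4.37, 8.51 and 12.6 CPM in β-NMN cells, which overlap, and its log2 fold change of -0.51 (SE 0.246, adjusted p = 0.0979) was not called, although it was without the filter on low counts (adjusted p = 0.0498) and without β-NMN mouse 2 (adjusted p = 0.0422 by edgeR). Acaca, which supplies malonyl-CoA to Fasn, was fitted at -0.02 (SE 0.133, adjusted p = 0.915), and its sign changed with the scaling.

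The LXR receptors moved in opposite directions. Nr1h3, the gene of LXRα, had 19.5, 22.5 and 26.0 CPM in vehicle and 32.3, 35.2 and 39.6 CPM in β-NMN cells. All 6 β-NMN mice lay above all 6 vehicle mice, with a log2 fold change of 0.66 (SE 0.0911, adjusted p = 3.21e-05 by edgeR). Nr1h2, the gene of LXRβ, had 133, 136 and 158 CPM in vehicle and 86.0, 105 and 116 CPM in β-NMN cells, again without overlap, with a log2 fold change of -0.43 (SE 0.0851, adjusted p = 0.000709 by edgeR). Nr1h2 has 1 pseudogene named after it in GENCODE M21, with which reads may be shared.

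The 4 LXR targets also split, with 2 lower, 1 higher and 1 not called, beside 27.9% lower and 23.7% higher of all genes tested. Mylip had 37.8, 50.7 and 75.2 CPM in vehicle and 6.84, 7.65 and 18.1 CPM in β-NMN cells. The groups lay well apart, with a log2 fold change of -2.43 (SE 0.245, adjusted p = 1.85e-06 by edgeR), a level 5.37 times lower and the lowest fold change of the 32 genes. Abca1, the exporter that loads sterol onto lipid-poor apolipoprotein, had 547, 714 and 901 CPM in vehicle and 194, 227 and 518 CPM in β-NMN cells. Every β-NMN mouse was below every vehicle mouse, with a log2 fold change of -1.33 (SE 0.229, adjusted p = 0.000226 by edgeR).

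Apoe had 3167, 3377 and 4640 CPM in vehicle and 6555, 7109 and 10135 CPM in β-NMN cells. It was the gene with the highest fold change of the 32, at 1.10 on the log2 scale (SE 0.141, adjusted p = 1.7e-05 by edgeR), or 2.15 times higher, without overlap. Abcg1, which exports sterol to mature lipoprotein particles, had 170, 235 and 267 CPM in vehicle and 222, 268 and 356 CPM in β-NMN cells, which overlap. Its log2 fold change of 0.28 (SE 0.134, adjusted p = 0.0951) was not called, and with the replicate number as a block it was (adjusted p = 0.0295). Soat1, which stores sterol as ester, had medians of 121 and 123 CPM and a log2 fold change of 0.04 (SE 0.0948, adjusted p = 0.749).

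In β-NMN mouse 6, all 4 LXR targets were higher than in the other 5 β-NMN mice, with 18.1 CPM of Mylip against 6.84 to 9.82, 518 of Abca1 against 194 to 317, 356 of Abcg1 against 222 to 294, and 10135 of Apoe against 6555 to 9117. This mouse was the highest of the 6 β-NMN mice for 11 of the 33 genes, the others being Nr1h3, Nr1h2, Acat2, Hmgcs1, Hsd17b7, Sc5d and Insig1, and the lowest for 13, namely Mvk, Pmvk, Idi1, Fdps, Fdft1, Sqle, Lss, Tm7sf2, Ebp, Dhcr7, Stard4, Fasn and Scd1. Insig1 had 105 CPM there against 58.0 to 74.7, whereas Scd1 had 4.37 CPM against 7.25 to 12.6. Without this mouse, the log2 fold change of Mylip was -2.68 and that of Abca1 -1.57, and that of Apoe was 1.04.

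**Figure D2:**
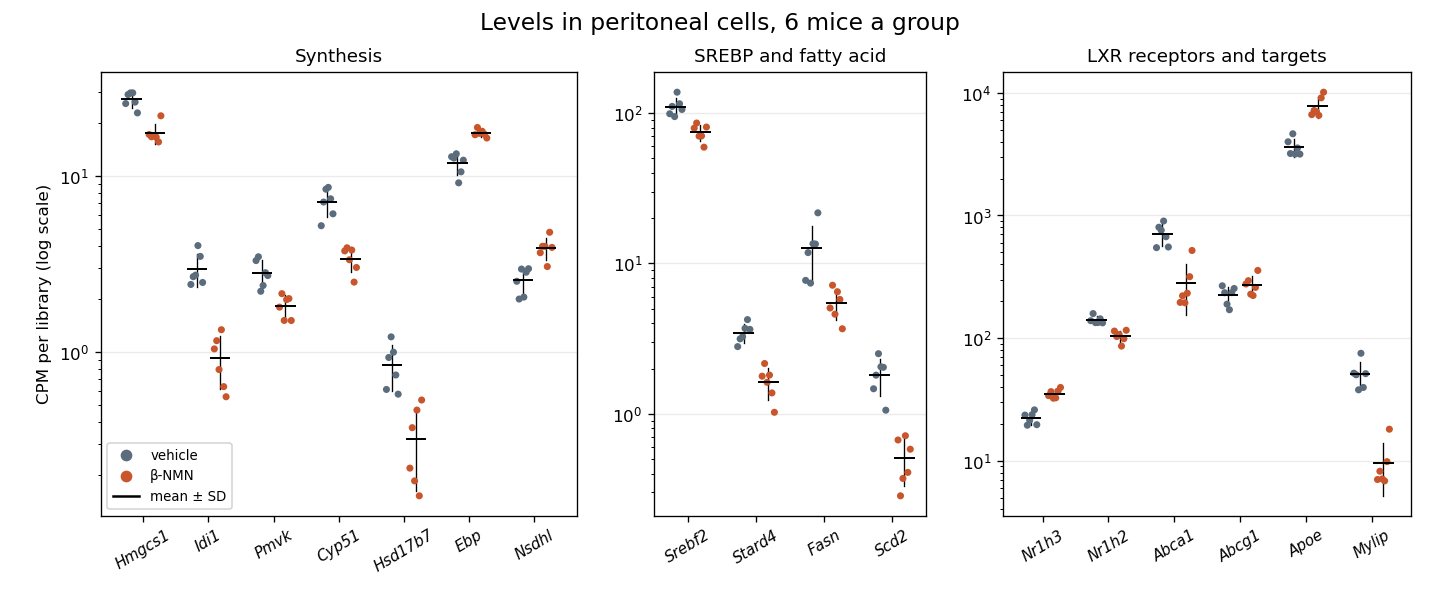
CPM per library (log axis) of 17 genes in peritoneal cells, 6 vehicle and 6 β-NMN mice, with mean ± SD. In the synthesis panel Ebp and Nsdhl lie higher with β-NMN and the other genes lower, and in the LXR panel Nr1h3 and Apoe lie higher, Nr1h2, Abca1 and Mylip lower, and Abcg1 overlaps.

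Within a library, the mean log2 CPM of the 18 synthesis genes was compared with that of Abca1, Abcg1 and Apoe, a difference in which the scaling of a library largely cancels. In vehicle cells it was -7.86 ± 0.119 (SD, n = 6), with mice from -8.00 to -7.71, and in β-NMN cells -8.18 ± 0.457 (n = 6), from -8.96 to -7.74. The ranges overlap, and β-NMN mice 5 and 6 had the lowest values, at -8.50 and -8.96. The 18 genes include Fdps, left out of testing, which had 1 and 0 reads in those mice. Its log2 CPM there, -4.17 and -5.05, depend on the prior count, and its part in these values was not tested. The difference between the group means, -0.33, was smaller than the SD among β-NMN mice, and was -0.17 without mouse 6. The synthesis mean itself ran from 1.58 to 2.05 in vehicle and from 1.31 to 1.70 in β-NMN mice. The efflux mean ran from 9.58 to 9.77 and from 9.40 to 10.27.

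Genes of the same pathways outside the 33 were counted in 6 further lists, beside the 23.7% of all genes tested that were called higher and the 27.9% called lower. Of 9 genes that process SREBP or degrade sterol enzymes, 5 were higher and 1 lower. The pair with the smallest p were Mbtps2, the membrane protease that releases SREBP, with a log2 fold change of 0.88 (SE 0.0831, adjusted p = 9.81e-07 by edgeR), and Insig2, a relative of Insig1, with 0.98 (SE 0.101, adjusted p = 2.32e-06). Of 22 genes of uptake, lysosomal export, ester and droplets, 10 were higher and 7 lower, the latter near the share of all genes. Lrp8, a lipoprotein receptor, went from a mean of 13.0 to 2.07 CPM, with a log2 fold change of -2.66 (SE 0.167, adjusted p = 2.89e-08 by edgeR), and Nceh1, which hydrolyses sterol ester, from 79.4 to 171 CPM, with one of 1.10 (SE 0.0901, adjusted p = 2.79e-07).

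Of 13 tested genes of other mevalonate, ketone and isoprenoid steps, 7 were higher and 3 lower, led by Nus1, of dolichol synthesis, with a log2 fold change of 0.76 (SE 0.093, adjusted p = 1.08e-05 by edgeR), and Pdss2, of ubiquinone synthesis, with 1.05 (SE 0.196, adjusted p = 0.000423). Of 15 other fatty acid genes 3 were higher and 3 lower, both below the shares of all genes, and 9 were not called. Acacb, the carboxylase of mitochondria, rose by 1.37 (adjusted p = 8.33e-05 by edgeR) and the elongase Elovl6 fell by 1.07 (adjusted p = 0.00172). Of 11 other LXR targets and partners 3 were higher, among them the lipase Lpl at 1.40 (adjusted p = 5.31e-06 by edgeR), and 3 lower, among them the partner receptor Rxra at -0.94 (adjusted p = 0.000904). Of 4 tested oxysterol enzymes, Cyp27a1 rose by 1.50 (adjusted p = 2.54e-05 by edgeR), Ch25h fell by 1.54 (adjusted p = 0.000348) and Cyp7b1 was the other lower gene.

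Markers of several cell types moved with treatment in the same libraries. The summed level of 8 macrophage markers ran from 5693 to 8663 CPM in vehicle and from 10744 to 12392 CPM in β-NMN cells, with 4 of the 8 called higher and 0 lower. That of 9 neutrophil markers ran from 491 to 999 and from 334 to 468 CPM, with 5 of 7 tested lower and 1 higher. That of 4 dendritic cell markers ran from 31.5 to 51.9 and from 11.7 to 17.2 CPM (3 lower), and that of 7 mesothelial and fibroblast markers from 91.0 to 962 and from 20.9 to 87.9 CPM (6 lower). Red blood cell markers ran from 2.91 to 38.8 and from 52.5 to 133 CPM (5 of 5 higher), and 5 of 7 lymphocyte markers were lower. The sums of airway secretory and ciliated markers (2.42 to 5.52 and 0.612 to 2.30 CPM) and of alveolar type 2 markers (41.0 to 46.4 and 46.6 to 59.9 CPM) also did not overlap between treatments. The part of these shifts in the results above was not tested.

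In CLP hearts 0 of the 33 genes, all of which were tested, passed an adjusted p of 0.05 by edgeR's quasi-likelihood test, and their smallest adjusted p was 0.435. Among them 6 had an unadjusted p below 0.05, against 11.3% of the 16245 genes tested. The 3 β-NMN hearts lay above the 3 vehicle hearts for 2 genes, Insig1 and Nr1h3, against 11.6% of all genes, and below them for 7, against 11.5%, namely Acat2, Pmvk, Idi1, Hsd17b7, Srebf2, Scd1 and Soat1. The median log2 fold change was -0.09, beside -0.01 for all genes, and without vehicle mouse 2 it was -0.14, beside -0.00198 for all genes. Without vehicle mouse 2, 0 of the 33 were called and 6 again had an unadjusted p below 0.05 (10.3% of all genes), with Nr1h3 in place of Fasn. The groups then did not overlap for 4 genes that were higher (14%) and 10 that were lower (14.6%). DESeq2 with all hearts called Insig1 higher, against 0.234% of all genes, and Hsd17b7 and Scd1 lower, against 1.38%.

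In the mevalonate stage Pmvk had 11.6, 15.2 and 8.18 CPM in vehicle mice 1, 2 and 3 and 7.49, 7.19 and 6.68 CPM in β-NMN mice 1, 2 and 3, with a log2 fold change of -0.71 (SE 0.234, adjusted p = 0.435 by edgeR), which was -0.49 without vehicle mouse 2. Idi1 had 1.89, 1.81 and 1.63 CPM and then 1.15, 1.24 and 1.30 CPM, with a log2 fold change of -0.53 (SE 0.222), or -0.52 without that mouse. Both genes had every β-NMN heart below every vehicle heart. In the sterol stage Hsd17b7 had 16.9, 23.7 and 14.6 CPM in vehicle and 8.42, 8.30 and 12.0 CPM in β-NMN hearts, with a log2 fold change of -0.94 (SE 0.237, unadjusted p = 0.00542 and adjusted p = 0.435 by edgeR), or -0.72 without that mouse. Sqle, the squalene epoxidase, had 2.30, 4.53 and 1.11 CPM and then 1.75, 1.18 and 1.04 CPM. Its groups overlapped, and its log2 fold change of -1.02 (SE 0.516) was -0.41 without vehicle mouse 2.

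Insig1 had 14.6, 15.3 and 17.1 CPM in vehicle and 31.7, 30.0 and 21.0 CPM in β-NMN hearts. It had the smallest unadjusted p of the 33 genes, 0.00264, with a log2 fold change of 0.82 (SE 0.178, adjusted p = 0.435 by edgeR), and vehicle mouse 2 lay between the other vehicle hearts, so that the fold change was 0.79 without it. Srebf2 had 38.9, 83.3 and 39.9 CPM in vehicle and 35.4, 36.3 and 33.2 CPM in β-NMN hearts. Its high value was that of vehicle mouse 2, and its log2 fold change of -0.63 (SE 0.301) was -0.18 without that mouse.

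Scd1 had 89.8, 345 and 51.8 CPM in vehicle and 37.2, 39.0 and 22.2 CPM in β-NMN hearts. The groups did not overlap, and the log2 fold change of -2.31 (SE 0.695, adjusted p = 0.435 by edgeR) was -1.12 without vehicle mouse 2, which held the highest level. Fasn had 83.2, 113 and 59.8 CPM and then 57.2, 50.8 and 62.6 CPM, with a log2 fold change of -0.59 (SE 0.231), which was -0.34 without that mouse. Nr1h3 had 29.1, 19.3 and 33.6 CPM in vehicle and 38.3, 37.6 and 36.7 CPM in β-NMN hearts (log2 fold change 0.46, SE 0.203, and 0.25 without vehicle mouse 2). Nr1h2 overlapped, with a log2 fold change of -0.08 (SE 0.138), which was 0.05 without vehicle mouse 2.

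Among the LXR targets Apoe had 365, 717 and 331 CPM in vehicle and 395, 332 and 212 CPM in β-NMN hearts. The groups overlapped, and the log2 fold change of -0.59 (SE 0.362) was -0.16 without vehicle mouse 2. Mylip, which had the lowest fold change of the 32 genes in peritoneal cells, had 61.5, 45.0 and 64.1 CPM and then 55.4, 55.8 and 74.1 CPM in hearts, with a log2 fold change of 0.12 (SE 0.186) whose sign turned without vehicle mouse 2 or without β-NMN mouse 3. Soat1 had 8.11, 13.5 and 8.12 CPM in vehicle and 5.51, 5.93 and 6.28 CPM in β-NMN hearts, without overlap (log2 fold change -0.74, SE 0.236, and -0.46 without vehicle mouse 2).

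The heart of vehicle mouse 2 was also the lowest of the 6 for cardiomyocyte markers, at 29756 CPM against 46566 to 53189 CPM, and the highest for adipocyte markers, at 103 CPM against 36.3 to 59.7 CPM, and for mesothelial and fibroblast markers, at 1786 CPM against 754 to 1076 CPM. The marker sums of 5 cell types did not overlap between treatments. Neutrophil markers ran from 25.4 to 42.2 CPM in vehicle and from 15.4 to 18.4 CPM in β-NMN hearts, and alveolar type 2 markers from 30.96 to 34.2 and from 24.8 to 30.1 CPM, whereas cardiomyocyte markers (29756 to 46849.7 and 48674 to 53189 CPM), endothelial markers (789.6 to 815 and 828 to 983 CPM) and dendritic cell markers (13.4 to 24.4 and 25.8 to 29.0 CPM) were higher in β-NMN hearts. The part of these markers in the results was not tested. The difference between synthesis and efflux genes was -3.36 ± 0.187 in vehicle and -3.44 ± 0.0496 in β-NMN hearts (SD, n = 3), within the spread, and the group means differed by -0.09, or 0.01 without vehicle mouse 2. With 3 against 3 mice an exact permutation test cannot give a p below 0.1.

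In CLP lungs 0 of the 33 genes were called by edgeR's quasi-likelihood test, 0 had an unadjusted p below 0.05, against 1.77% of 17008 genes tested, and DESeq2 called 0 of them. For 0 of the 33 were the groups free of overlap, against 4.47% of all genes for higher and 3.75% for lower values with β-NMN. The smallest adjusted p was 0.969, and the median log2 fold change was 0.13, beside 0.00 for all genes, and 0.11, beside 0.02, without vehicle mouse 2. Without vehicle mouse 2, 0 of the 33 were called, and Cyp51 and Msmo1 had an unadjusted p below 0.05 (4.31% of all genes). The groups then did not overlap for Hmgcs1, Fdft1, Cyp51 and Msmo1, which were higher (9.59%), and for Srebf1 and Nr1h2, which were lower (10.5%). With all lungs, Hmgcs1 (-0.43), Fdft1 (-0.10), Cyp51 (-0.30), Msmo1 (-0.08) and Nr1h2 (0.11) were fitted the other way. Without that mouse their log2 fold changes were 0.33, 0.25, 0.43, 0.43 and -0.33.

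The gene with the smallest p in each role is given here. Pmvk had 165, 359 and 150 CPM in vehicle mice 1, 2 and 3 and 160, 94.2 and 124 CPM in β-NMN mice 1, 2 and 3, with a log2 fold change of -0.83 (SE 0.411), which was -0.32 without vehicle mouse 2. Dhcr7, the last reductase of the route, had 6.07, 4.48 and 8.45 CPM and then 8.10, 10.4 and 7.70 CPM (0.46, SE 0.334, and 0.27 without that mouse). Both genes overlapped between the groups. Stard4 had 19.2, 21.4 and 13.8 CPM and then 18.3, 26.3 and 21.5 CPM (0.29, SE 0.264, and 0.42 without it), and Scd2 386, 308 and 524 CPM and then 511, 692 and 472 CPM (0.46, SE 0.309, and 0.29 without it). Nr1h3 had 80.1, 45.1 and 76.6 CPM and then 85.0, 66.5 and 78.1 CPM, with a fold change of 0.18 (SE 0.28) on the log2 scale, which was -0.03 without vehicle mouse 2. Abcg1 had 65.7, 56.6 and 74.2 CPM and then 75.8, 87.2 and 60.0 CPM (0.18, SE 0.236, and 0.09 without it), and Soat1 80.5, 89.3 and 87.7 CPM and then 109, 124 and 79.4 CPM (0.28, SE 0.242, and 0.31 without it). With all lungs the groups overlapped for each of these 7 genes.

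The lung of vehicle mouse 2 lay far from the others within the sterol route itself, in genes chosen here after their values were seen. It had 153 CPM of Hmgcs1 against 48.9 to 68.8 in the other 5 lungs, 61.1 CPM of Cyp51 against 20.0 to 29.8, 63.3 CPM of Fdft1 against 33.8 to 44.5, and 9.25 CPM of Fdps against 1.96 to 3.36. It had only 3.61 CPM of Mvk against 21.4 to 28.0, 1.30 CPM of Nsdhl against 6.88 to 15.6, and 30.3 CPM of Nr1h2 against 88.1 to 151. Some genes of the route were thus highest, and others lowest, of all lungs in the same library. This lung had the lowest total count, 8915366. It also had the lowest macrophage marker sum, 1458 CPM against 4074 to 5547 CPM, the highest red blood cell marker sum, 11867 CPM against 1999 to 4088 CPM, and the highest adipocyte marker sum, 279 CPM against 29.2 to 97.8 CPM. Between treatments, macrophage sums did not overlap (1458 to 4374 CPM in vehicle and 5082 to 5547 CPM in β-NMN lungs), nor did those of mesothelial and fibroblast markers (1496 to 1812 and 1276 to 1363 CPM) and of cardiomyocyte markers (254 to 423 and 76.8 to 248 CPM). The part of these in the results was not tested. The difference between synthesis and efflux genes was -3.13 ± 0.124 in vehicle and -3.10 ± 0.122 in β-NMN lungs (SD, n = 3), and the group means differed by 0.03, or 0.09 without vehicle mouse 2.

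**Figure D3:**
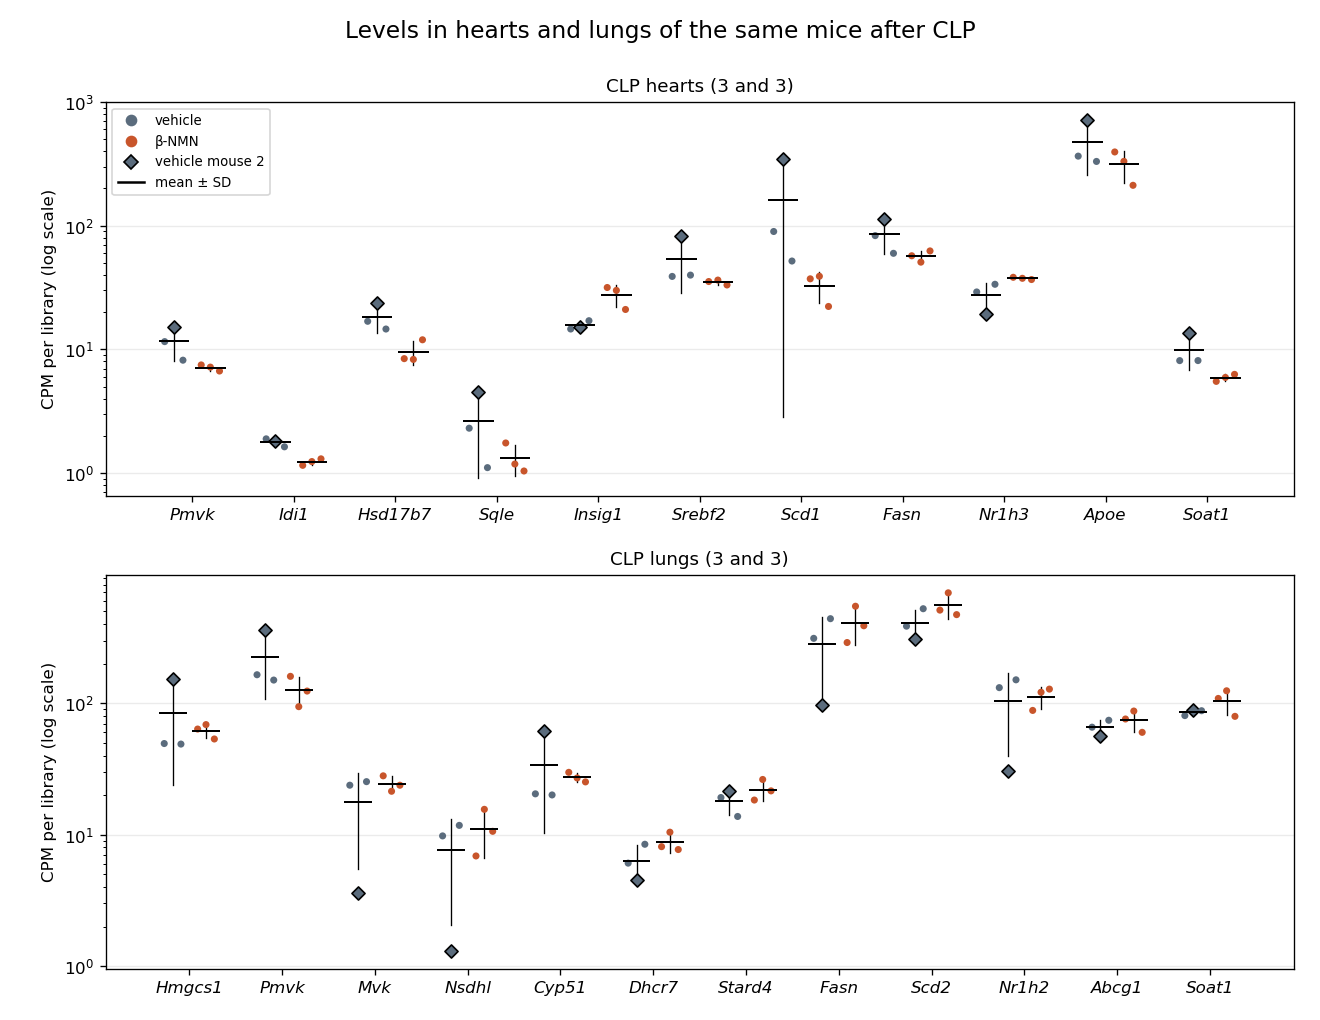
CPM per library (log axis) in CLP hearts (11 genes) and lungs (12 genes) of the same 3 vehicle and 3 β-NMN mice, with mean ± SD and the library of vehicle mouse 2 as a diamond. The diamond holds the highest heart Scd1 value, 345 CPM, the highest lung Hmgcs1 value, 153 CPM, and the lowest lung Mvk value, 3.61 CPM.

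**Figure D4:**
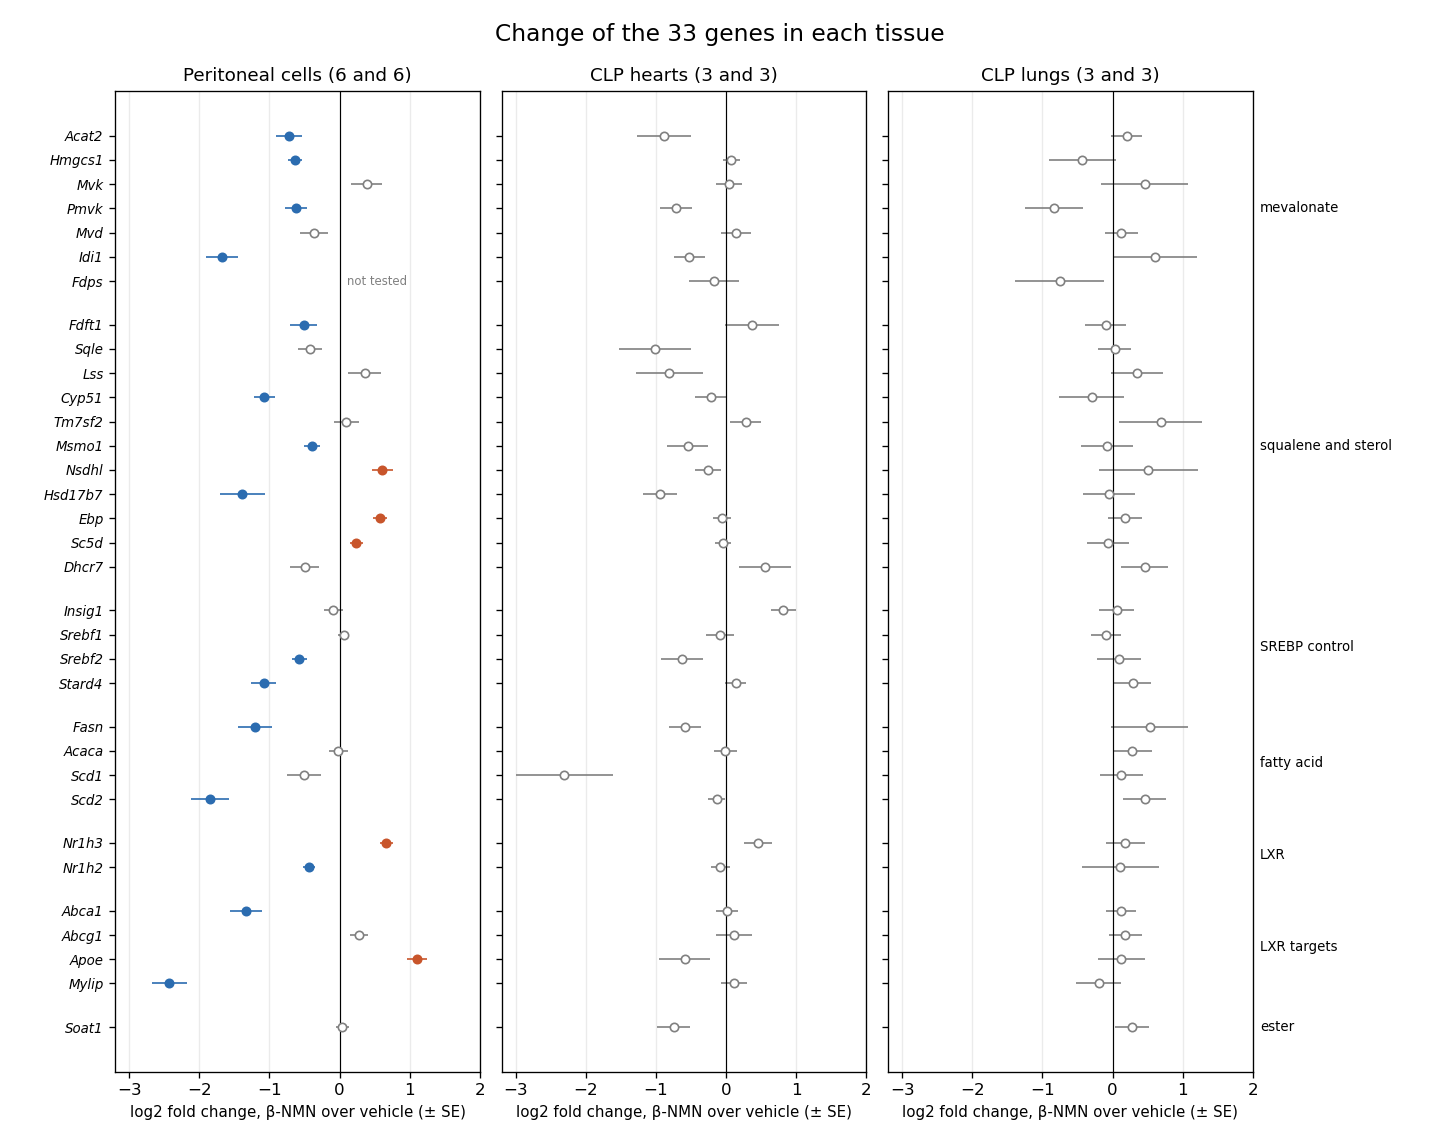
Log2 fold change of β-NMN over vehicle with its SE for the 33 genes, by role, in peritoneal cells, hearts and lungs. Filled points mark an adjusted p below 0.05, of which peritoneal cells have 20 (15 lower in blue and 5 higher in orange), and hearts and lungs 0.

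The effect of β-NMN was also compared directly between hearts and lungs. The interaction of organ and treatment was called for 0 of the 33 genes by edgeR (smallest adjusted p 0.96), and 5 had an unadjusted p below 0.05, against 4.35% of 18318 genes. They were Soat1, Scd1, Insig1, Acat2 and Hsd17b7. Soat1 was fitted 1.03 lower on the log2 scale in the heart effect than in the lung effect (-1.03, SE 0.323, unadjusted p = 0.00795 and adjusted p = 0.96 by edgeR), or by -0.74 without vehicle mouse 2. For Scd1 the difference was -2.43 (SE 0.786, unadjusted p = 0.0097, adjusted p = 0.96), and -1.21 without that mouse. No effect in either organ was thus shown to differ from that in the other. Peritoneal cells came from other mice and another model, and their effects were not tested against those of the organs.

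Levels of most of the 33 genes differed between heart and lung. Within mice, 22 of the 33 genes were higher in lung than in heart by edgeR's quasi-likelihood test with the mouse as a block, against 34.5% of 16525 genes tested, and 4 were higher in heart, against 29.6%. The median log2 fold change of heart over lung was -0.92, beside -0.08 for all genes. CPM in this comparison are scaled over both organs together. In vehicle mice alone, 3 pairs of organs, 9 genes were higher in lung, against 15.4% of all genes, and 3 in heart, against 13.6%. Without vehicle mouse 2, 26 were higher in lung (39.1%) and 5 in heart (38.2%).

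All 4 fatty acid genes were higher in lung with all mice, Fasn in 5 of 6 mice and the others in 6 of 6. In vehicle mice alone the calls of Fasn, Acaca and Scd1 were lost, and that of Acaca was also lost without the filter on low counts. Scd2 had 235 to 558 CPM in lungs and 22.5 to 28.4 CPM in hearts, with a log2 fold change of -3.90 (SE 0.209), or 14.9 times more in lung. Lung surfactant is rich in lipid made by alveolar type 2 cells, whose markers summed to 22025 to 41124 CPM in these lungs and 24.8 to 34.2 CPM in hearts, with each organ scaled on its own. The part of cell makeup in the differences was not tested. In the mevalonate stage 5 of 7 genes were higher in lung, against 34.5% of all genes, led by Pmvk with 75.9 to 274 CPM in lungs and 8.26 to 18.7 CPM in hearts (log2 fold change -3.53, SE 0.156). In vehicle mice alone Pmvk, Acat2 and Mvd were still called and Hmgcs1 and Fdps were not, and the call of Hmgcs1 was also lost with DESeq2 size factors and without β-NMN mouse 1 or 2. In the sterol stage 6 of 11 were higher in lung, with Msmo1 at 17.1 to 37.6 against 3.77 to 9.23 CPM (-2.11, SE 0.177), and in vehicle mice alone Msmo1 and Sqle were still called and Lss, Cyp51, Ebp and Sc5d were not. Soat1, at 65.4 to 100.2 against 6.85 to 16.5 CPM (-3.01, SE 0.245), and the exporter Abcg1, at 43.2 to 70.3 against 6.30 to 12.2 CPM (-2.42, SE 0.145), were likewise higher in lung in all 6 mice. Stard4 (-0.84, SE 0.144) and Nr1h3 (-0.53, SE 0.119) had the smallest p of their roles among genes higher in lung, and neither was called in vehicle mice alone (adjusted p = 0.12 and 0.0934 by edgeR).

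The 4 genes higher in heart were Hsd17b7, Mylip, Fdft1 and Abca1. Hsd17b7 had 10.4 to 29.1 CPM in hearts and 2.93 to 6.02 CPM in lungs, with a log2 fold change of 1.88 (SE 0.236), and no mouse had more in lung. Mylip had 55.2 to 91.6 against 23.3 to 49.2 CPM (1.07, SE 0.137) and Abca1 73.1 to 103 against 42.0 to 57.1 CPM (0.93, SE 0.128), each higher in heart in 6 of 6 mice. Fdft1 was higher in heart in 5 of 6 mice (1.01, SE 0.309), vehicle mouse 2 being the exception, and its call was lost without any of the other 5 mice. The efflux genes thus did not go one way between organs, with Abca1 higher in heart and Abcg1 and Apoe higher in lung. Apoe was higher in lung in 5 of 6 mice (-0.90, SE 0.301), a call that was also lost without any mouse but vehicle mouse 2. Neither Fdft1 nor Apoe was called in vehicle mice alone.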

How the data were processed

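RNA-seq libraries of 12 peritoneal cell samples and of 6 hearts and 6 lungs were analysed from 2 deposited tables of raw gene counts. The authors made these counts with STAR 2.7.3a and featureCounts 2.0.0 on the mouse build mm10, per the submitters' processing notes. Groups follow the sample labels. Because 2 β-NMN hearts are both numbered 3, replicate 2 was given to the heart that shares its mouse with lung 2. Each library comes from a single mouse, and p-values measure the spread between these mice only.

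Each tissue was tested on its own with edgeR 4.0.16 (R 4.3.3) by the quasi-likelihood F-test after filterByExpr and TMM scaling, with Benjamini-Hochberg adjustment over all genes tested and calls at an adjusted p below 0.05. Organs were compared with the mouse as a block, and the organ by treatment interaction without it. Log2 CPM use a prior count of 2. The script was tested on simulated counts. The 33 genes, the other lists and the tests were chosen with earlier results of these data known. All 33 genes are counted, and the genes named with full values are those with the smallest p in each role, up to 4 in peritoneal cells and up to 2 in hearts and lungs (of which 1 is given in lungs), with 1 between organs. Outside the 33, the 2 genes with the smallest p in each list are named.

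Alternatives were DESeq2 size factors, no filter on low counts, DESeq2 1.42.0, the newer quasi-likelihood form, limma 3.58.1 voom with quality weights, a block for the replicate number, and leaving out each mouse. The comparison of organs was also run in vehicle mice alone. Exon lengths and overlaps come from GENCODE M21 and promoters from RefSeq (GRCm38.p6).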

Additional observations from a re-analysis of the deposited data

Results flagged for a closer look

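Among the 48 groups of 6 peritoneal libraries tested for a single library far from the others, 2 held one, and chance alone gives about 1 in 20. Gaps were measured on log2 CPM. In β-NMN cells, Hmgcs1 had 22.0 CPM in replicate 6 against 15.6 to 17.2 CPM in the other 5. On the log2 scale this was a gap of 0.715 of the whole range. Mylip had 18.1 CPM in the same library against 6.84 to 9.82 CPM in the others, a gap of 0.628 on the log2 scale. Groups of 3 hearts or lungs were not tested in this way.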

How the results depend on the processing

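In peritoneal cells, the alternatives that keep all mice called 4 to 6 of the 33 genes higher and 14 to 15 lower, and leaving out a mouse gave 4 to 7 higher and 14 to 17 lower. Of the 20 calls, 17 to 20 remained in each alternative with all mice. Fdft1 was lost with DESeq2 size factors, without the filter, with voom and without any mouse but vehicle mouse 6. Sc5d was lost without the filter, with voom, with the block and without 4 of the mice, and Msmo1 without the filter. Calls were gained by Scd1 without the filter and without β-NMN mouse 2, by Mvk, Lss and Sqle with voom, by Abcg1 with the block and without 3 of the mice, and by Mvk, Mvd, Lss, Dhcr7 or Sqle without vehicle mouse 2, 3 or 6. Another scaling moved the median of all genes by at most 0.0286 in peritoneal cells and 0.0541 between organs.

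Libraries of the same replicate number were correlated on log2 CPM after the mean of each treatment group was subtracted from each gene. These values do not measure the likeness of whole profiles. They were -0.169 to 0.132 in peritoneal cells, 0.0735 to 0.241 in hearts and -0.518 to 0.304 in lungs. By this measure 0 of 6 vehicle peritoneal libraries, 3 of 3 vehicle hearts and 1 of 3 vehicle lungs were most like the β-NMN library of their own number. With the replicate block, 5 genes were higher and 15 lower in peritoneal cells (Sc5d lost, Abcg1 gained), and 0 in hearts, in lungs and in the interaction. Without the mouse block the 26 calls between organs remained and Mvk and Idi1 were gained.

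DESeq2 called 1 gene higher and 2 lower in hearts, and the lungs gave 0 under each alternative. The interaction gave 0 with DESeq2 size factors, without the filter, with DESeq2, with the mouse block and without each mouse, and was not run with voom or the newer quasi-likelihood form. In vehicle mice alone 9 genes were higher in lung, with fewer samples. Leaving out a mouse gave 20 to 26 genes higher in lung and 3 to 5 higher in heart. The synthesis minus efflux difference ran from -0.42 to -0.17 in peritoneal cells, from -0.18 to 0.01 in hearts and from -0.04 to 0.10 in lungs.

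The sign of some differences that were never called turned, and the cause was not tested. Acaca in peritoneal cells was 0.00784 with DESeq2 size factors, 0.00405 with DESeq2 and -0.0522 to 0.0557 when a mouse was left out. Insig1 there ran from -0.18 to 0.00464 and Soat1 from -0.0149 to 0.13. With voom, Nr1h2 in hearts was 0.0428, Mylip in hearts -0.0580, Nr1h3 in lungs -0.0300 and Abcg1 in lungs -0.0247. When a mouse was left out, Nr1h2 in hearts ran from -0.15 to 0.0487, Mylip in hearts from -0.0298 to 0.22 and Nr1h3 in lungs from -0.0339 to 0.34. Hmgcs1, Fdft1, Cyp51, Msmo1 and Nr1h2 in lungs, among others, also turned without vehicle mouse 2, as given above. Depth was lowest in the lung of vehicle mouse 2, at 8915366 counts, and its part in the spread of the lung values was not tested. Replicate lungs came from separate mice and differed beyond counting error. The smallest chi-square per gene between a pair of libraries of the same treatment was 25.6, where counting alone gives about 1. That value is not a test of depth.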
